A study of Mus musculus with 12 samples.

Results

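The miR-30 family was measured as 5 mature miRNAs, mmu-miR-30a, mmu-miR-30b, mmu-miR-30c, mmu-miR-30d and mmu-miR-30e (written without the prefix from here on), taken by name from the 566 mouse miRNA probes of a NanoString panel. The cells, named IMM, were a continuously growing line of mouse macrophages. They were grown in medium with 10% serum and received 100 ng/mL of lipopolysaccharide (LPS), a bacterial cell-wall component that macrophages sense through Toll-like receptor signalling. Dishes were taken at 30, 60 and 120 min, with 0 min as the control, and each time point had 3 biological replicates, 12 samples in all. No group carried a genetic change that the labels name, all cells were used 5 passages after thawing, and the labels do not say whether the replicates came from separate thaws. The blood-lineage miRNA miR-142-3p averaged a signal of 8873 over the samples, and all 5 macrophage and blood-lineage miRNAs looked at were above the background filter. MiR-122 of liver was at the lower limit of the table in all 12 samples, and of the muscle and erythroid lists 0 of 5 and 0 of 3 passed the filter. Of the other lists, 1 of 3 neuronal, 2 of 7 epithelial, 1 of 2 endothelial, 2 of 5 mesenchymal and 1 of 2 lymphocyte miRNAs did, among them miR-199a-3p of mesenchyme with a mean of 560.6.

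Mature miRNAs guide Argonaute proteins to messenger RNAs that pair with their seed, bases 2 to 8 from the 5′ end. Members of the miR-30 family share a seed and differ mostly in the 3′ part, so that they can recognise largely the same targets. They are broadly expressed, and are known as regulators of autophagy, apoptosis and differentiation.

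The mature sequences of 3 of the 5 members were available from RefSeq (GRCm38.p6). They are shown for what these 3 share and for which 2 of the 3 are most alike. MiR-30b and miR-30d could not be compared in this way. The seed is in capitals, and the last line gives miR-384-5p, which carries the same seed but is not counted in the family by name.
miR-30a: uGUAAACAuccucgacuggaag
miR-30c: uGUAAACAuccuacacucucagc
miR-30e: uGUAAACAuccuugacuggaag
miR-384-5p: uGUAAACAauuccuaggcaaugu
MiR-30a and miR-30e were identical at 21 of 22 bases and differed by C13U, counted from the 5′ end of miR-30a. MiR-30c matched each of them at 17 of the 22 bases compared from the 5′ end. MiR-384-5p matched miR-30a at 12 of 22 bases, and its first difference lay at base 9, just after the seed. How well the probes separate miR-30a from miR-30e, or any other 2 members, was not tested.

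The members come from paired genes. Mir30a (mature sequence at chr1:23272274-23272295, plus strand) has Mir30c-2 (chr1:23291714-23291736, plus strand) as its neighbour, and Mir30e (chr4:120772660-120772681, minus strand) has Mir30c-1 (chr4:120769584-120769606, minus strand). The Mir30e and Mir30c-1 pair lies within the gene Nfyc, which encodes a subunit of the transcription factor NF-Y. Mir30b and Mir30d are likewise neighbours in the RefSeq annotation of the same build. MiR-30c is thus made from 2 genes, and its probe cannot say from which. The 2 hairpins, with the shared mature miRNA in capitals, differ around it.
Mir30c-1: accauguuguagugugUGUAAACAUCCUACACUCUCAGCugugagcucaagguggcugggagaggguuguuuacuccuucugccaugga
Mir30c-2: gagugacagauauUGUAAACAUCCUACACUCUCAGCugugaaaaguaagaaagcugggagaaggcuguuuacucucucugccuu
Their mature sequences were the same 23 bases. The other arms of the miR-30 hairpins had no probe by name on the panel. MiR-384-5p was at the lower limit in all 12 samples, so the signal for this seed came from the 5 members.

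Values are given as the deposited signal, in which each sample had been scaled to the same geometric mean of 4 housekeeping mRNAs. Depth ran from 138655 to 365403 counts per sample. The 0 min samples differed from the others in a pair of ways that touch every result. Counts of the added ligation controls, synthetic RNAs that report on the joining of tags to miRNAs, were 141.8 to 293 per 1000 positive-control counts at 0 min and 384.1 to 529 in the 9 stimulated samples. In addition, 0 min replicate 1 stood apart, with the fewest counts and with 882 housekeeping counts per 1000 positive-control counts against 1585 to 3156 in the other samples. The part of depth and of these control counts in the results was not tested.

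MiR-30c carried most of the family signal. Its signal was 1703, 854 and 783 in the 0 min replicates, 989.6, 756 and 859 at 30 min, 876, 945 and 794 at 60 min, and 1461, 819 and 796 at 120 min. The 0 min range covered all 9 stimulated values but 1, the 756 of 30 min replicate 2. MiR-30b came next, with 245, 185 and 152 at 0 min, 269, 207.7 and 251 at 30 min, 392, 425 and 158 at 60 min, and 366, 217 and 254 at 120 min. Its groups overlapped, and the replicates at 60 min spread most.

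MiR-30d, encoded beside miR-30b, read 104, 60.6 and 65.4 at 0 min and 136, 109 and 113 at 30 min. It read 136, 149.9 and 92.8 at 60 min and 204.9, 113 and 127.97 at 120 min. All 3 samples at 30 min and at 120 min lay above every 0 min sample, which also held for 15.7% and 34.9% of the 166 tested miRNAs, and 1 sample at 60 min did not. MiR-30a read 81.5, 45.0 and 39.9 at 0 min, 96.1, 50.7 and 103 at 30 min, 86.7, 112 and 61.0 at 60 min, and 137, 90.1 and 75.6 at 120 min. At every stimulated time point at least 1 sample lay below the highest 0 min sample.

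MiR-30e was the faintest member, with 77.0, 26.0 and 24.6 at 0 min, 36.8, 29.8 and 38.0 at 30 min, 45.95, 53.9 and 27.4 at 60 min, and 47.1, 29.5 and 26.9 at 120 min. These signals stood for 29 to 44 counts per sample, close to the highest negative control of a sample (24 to 36 counts). The miR-30e count exceeded that control in 10 of 12 samples, and the other members exceeded it in all 12. For the 29 counts of 0 min replicate 3 the exact Poisson 95% interval runs from 19.4 to 41.6 counts, and such intervals cover counting error only. The plot of member signals sets each sample beside its own negative control.

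**Figure D1:**
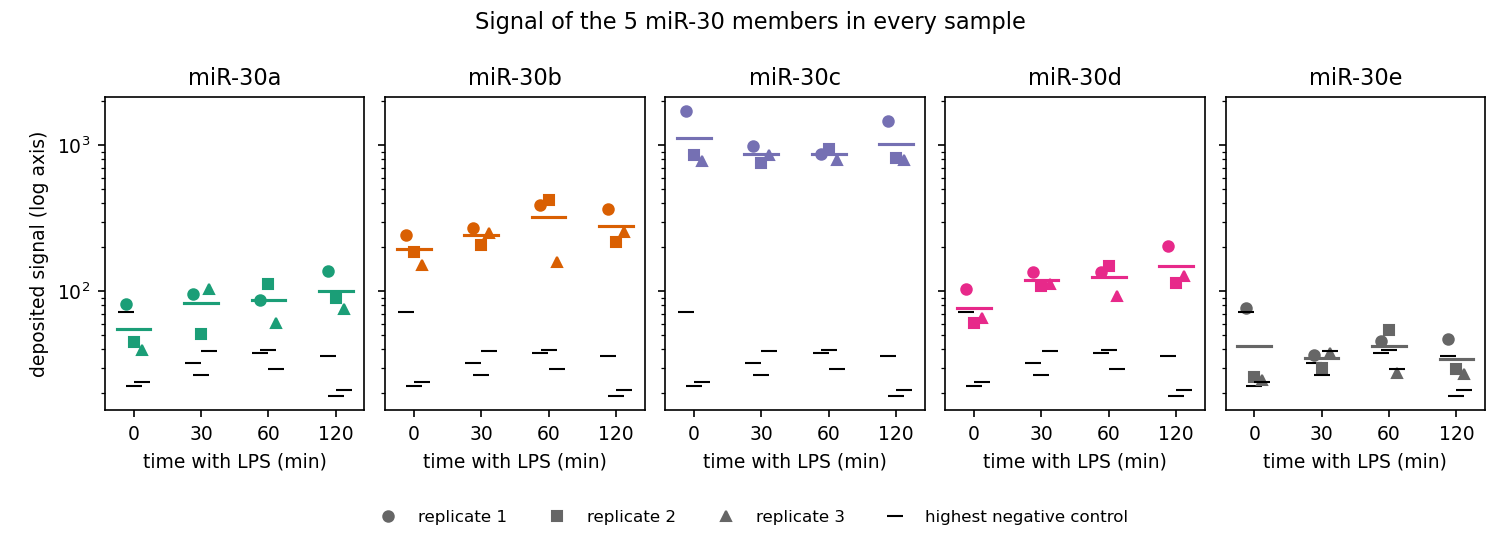
Deposited signal (log axis) of each miR-30 member against minutes with LPS. Points are samples, with 1 symbol per replicate number, coloured bars are group means, and black dashes are the sample's highest negative control on the same scale. MiR-30c sits between 756 and 1703 and miR-30e among the negative controls.

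The order of the signals was miR-30c, miR-30b, miR-30d, miR-30a and miR-30e in all 12 samples. Means over the 12 samples were 969.6 ± 298 (SD), 260.1 ± 89.6, 118 ± 38.5, 81.5 ± 28.99 and 38.6 ± 15.4, at ranks 31, 59, 89, 105 and 139 of the mouse miRNAs. The means of miR-30d and miR-30a differed by less than the SD of miR-30d and by more than that of miR-30a, and miR-30d was the higher within each sample. Capture and ligation can differ between probes, so these are orders of signal and not of molecule numbers.

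After LPS a smaller part of the family signal came from miR-30c. Its share of the summed signal of the 5 members was 77.0%, 72.9% and 73.5% in the 0 min replicates. The 9 stimulated samples ran from 56.1% to 70.0%, all below the 0 min samples, with means of 64.4% ± 1.3 at 30 min, 61.1% ± 7.8 at 60 min and 64.2% ± 1.9 at 120 min (SD, n = 3). The share of miR-30d was 4.71% to 6.14% at 0 min and 8.19% to 9.99% in stimulated samples. That of miR-30a was 3.69% to 3.84% against 4.39% to 7.58%. Neither overlapped. The shares of a sample add up to a fixed total, so these are not results apart from the lower share of miR-30c. Separation of this kind was not rare, since 15.6% of the ratios of any 2 tested miRNAs showed no overlap between 0 min and stimulated samples. How often member shares of other families would separate was not counted. The share of miR-30b, 11.1% to 15.8% at 0 min, reached 25.5% and 25.2% in 2 of the 60 min samples but was 14.0% in the other. The share of miR-30e overlapped between 0 min (2.22% to 3.48%) and stimulated samples (2.10% to 3.198%).

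**Figure D2:**
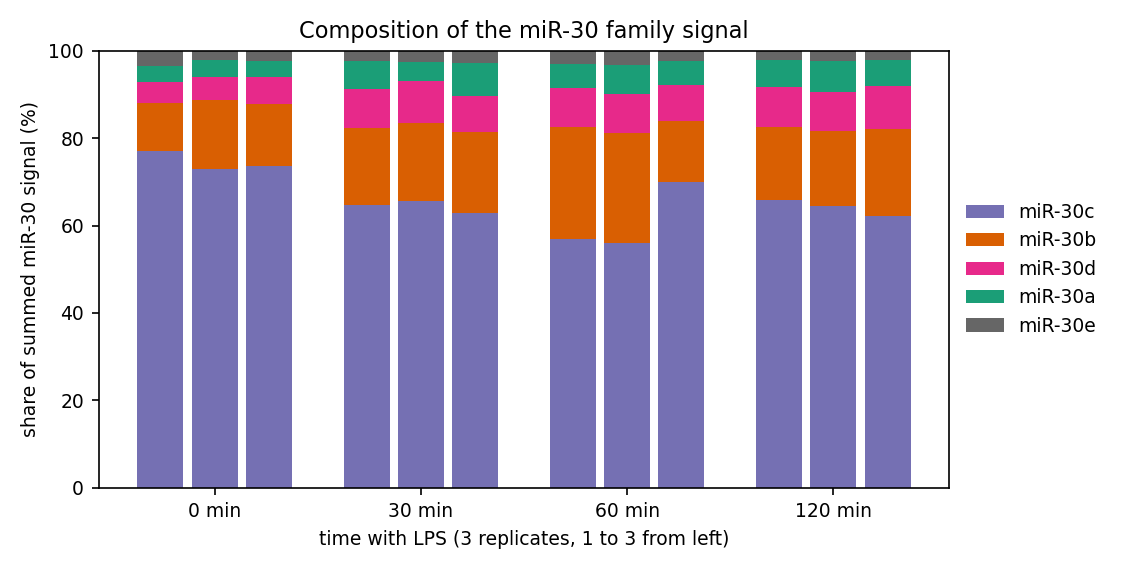
Share of the summed miR-30 signal held by each member (%, stacked from 0), 1 bar per sample, grouped by minutes with LPS. MiR-30c holds 72.9% to 77.0% at 0 min and 56.1% to 70.0% in the 9 stimulated samples.

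Ratios between members within a sample are free of any factor that scales a whole sample, so they were compared over the 4 time points with an exact permutation test (two-sided, 15400 partitions of the samples, smallest possible p 6.49e-05). P-values were adjusted over the 13695 pairs of the 166 tested miRNAs. Of the 10 miR-30 pairs, 2 passed an adjusted 0.05 and 4 an unadjusted 0.05, against 24.5% and 42.3% of all pairs. The share of member pairs that changed was thus near that of any 2 miRNAs on the panel. Ratios between members varied about as much as other ratios, with a median SD over the samples of 0.42 log2 units for the 10 pairs and 0.43 for all pairs.

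The 2 pairs that passed both held miR-30e. The log2 ratio of miR-30e to miR-30d fell from -0.999 ± 0.50 at 0 min to -1.75 ± 0.18 at 30 min, -1.57 ± 0.14 at 60 min and -2.07 ± 0.15 at 120 min (SD, n = 3; exact p = 0.00039, adjusted p = 0.0119). All 9 stimulated samples lay below the 0 min samples. The ratio of miR-30e to miR-30a fell from -0.51 ± 0.37 to -1.18 ± 0.37, -1.02 ± 0.11 and -1.52 ± 0.06 (exact p = 0.00805, adjusted p = 0.0396), with 8 of 9 stimulated samples below every 0 min sample. Because miR-30e read near the negative controls, these ratios were also taken after the mean negative control had been subtracted. The ratio to miR-30d then ran from -1.36 at 0 min to -2.53 at 120 min (exact test, adjusted p = 0.0471), and that to miR-30a from -0.72 to -1.92 (adjusted p = 0.0502). With 1 sample left out, the ratio to miR-30d passed in 11 of 12 repeats of the exact test, all but that without 120 min replicate 3 (adjusted p = 0.0585), and the ratio to miR-30a in 3 of 12 (adjusted p up to 0.107, without 0 min replicate 1). With a common floor of 45.3 signal units, which lies above most miR-30e values, neither passed (adjusted p = 0.0658 and 0.154).

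MiR-30d and miR-30a differed more relative to miR-30c, but these ratios did not pass over all pairs. The log2 ratio of miR-30d to miR-30c was -3.79 ± 0.23 at 0 min, -2.85 ± 0.07 at 30 min, -2.80 ± 0.24 at 60 min and -2.77 ± 0.12 at 120 min (SD, n = 3; exact p = 0.0153, adjusted p = 0.0564). That of miR-30a to miR-30c was -4.28 ± 0.08, -3.42 ± 0.42, -3.36 ± 0.31 and -3.32 ± 0.13 (exact p = 0.0185, adjusted p = 0.0631). In both, the 9 stimulated samples lay above the 0 min samples, by 0.99 and 0.92 log2 units on average, and most of the difference was present at 30 min. Of all pairs, 15.6% showed no overlap between 0 min and stimulated samples, and 3 of the 10 member pairs did.

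Added RNAs were set beside these ratios. Ligation control B, at 566 to 1756 counts, covered the level of miR-30c, and control C had 47 to 245 counts, against 36 to 125 for miR-30a and 46 to 187 for miR-30d. The log2 ratio of C to B was -3.64 ± 0.13 at 0 min, -3.42 ± 0.28 at 30 min, -3.22 ± 0.15 at 60 min and -3.11 ± 0.32 at 120 min (SD, n = 3; exact p = 0.107). On average it was 0.39 log2 units higher in stimulated than in 0 min samples, and 8 of 9 stimulated samples lay above every 0 min sample. After subtraction of the mean negative control the same ratio was 0.55 units higher (exact p = 0.036), and that of C to the brighter control A was 0.26 units higher as deposited (exact p = 0.0202) and 0.42 after subtraction (exact p = 0.0108). Adjusted over the 6 control ratios tested, these p-values were 0.161 and 0.0719 for C to B, and 0.0606 and 0.0606 for C to A, as deposited and after subtraction. The ratio of B to A differed by -0.13 as deposited (exact p = 0.306). These RNAs are not made by the cells, and the part of this in the member ratios was not tested.

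**Figure D3:**
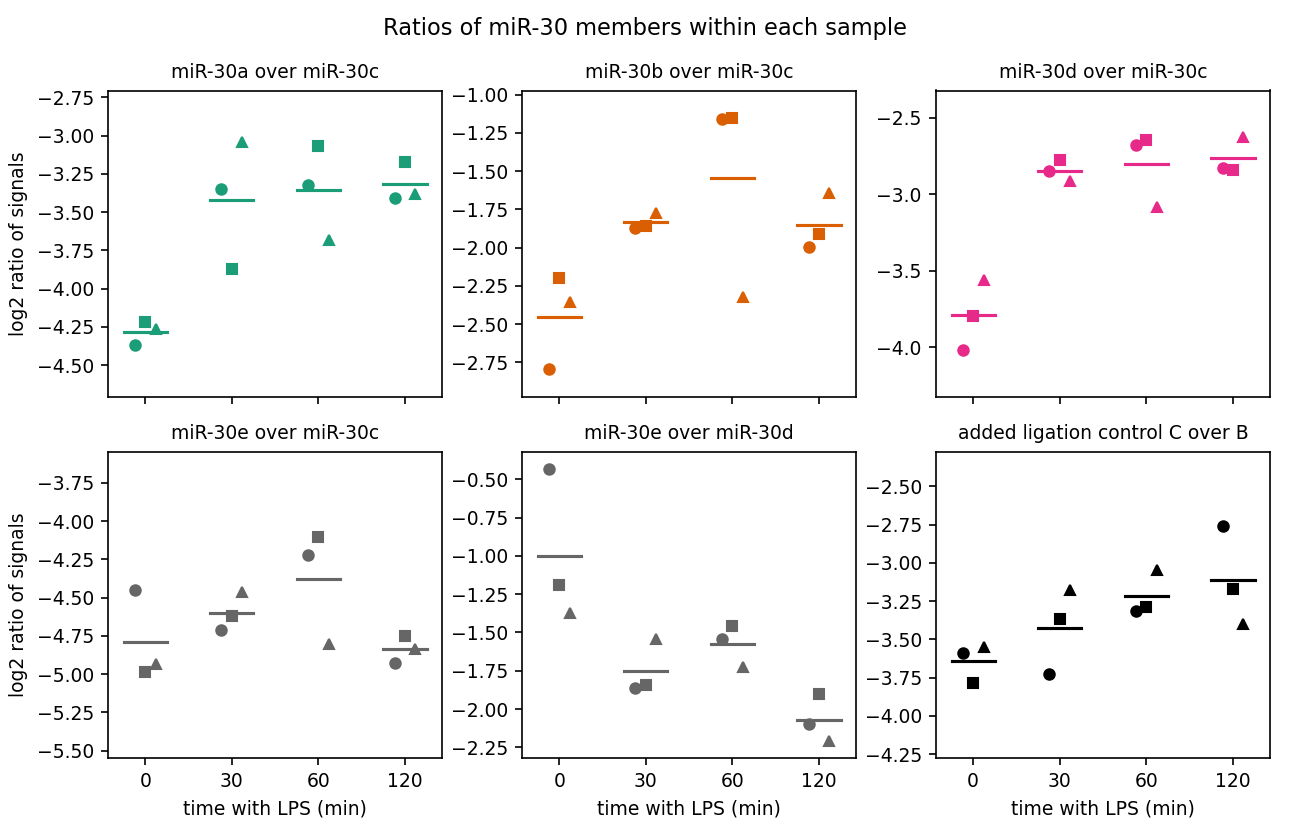
Log2 ratio of signals within each sample for 5 pairs of miR-30 members and for the added ligation controls C over B, against minutes with LPS. Points are samples, with 1 symbol per replicate number, and lines are group means; every panel spans 2 log2 units. MiR-30d over miR-30c averages -3.79 at 0 min and -2.77 at 120 min, and the added controls -3.64 and -3.11.

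Pairs of members from neighbouring genes were also set beside the others, without a test. The median SD over the 12 samples was 0.29 log2 units for the 3 pairs encoded side by side (miR-30a with miR-30c, miR-30b with miR-30d, miR-30c with miR-30e) and 0.44 for the other 7. The 3 did not behave alike, since the SD was 0.28 for miR-30d over miR-30b, 0.29 for miR-30e over miR-30c and 0.48 for miR-30a over miR-30c. The steadiest pair was miR-30a over miR-30d, with an SD of 0.25 and an average difference between stimulated and 0 min samples of -0.07. These 2 members are not neighbours, and their sequences and the separation of their probes were not compared.

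Whether each member differed from 0 min on the deposited scale was tested with limma across the 166 miRNAs above background, adjusted by Benjamini-Hochberg. All 5 members were above that filter, and none passed at 30, 60 or 120 min, where 3.01%, 10.8% and 21.7% of the tested miRNAs did. At an unadjusted 0.05 limma called 0, 0 and 2 members. The closest were miR-30d at 120 min (log2 change 0.94 ± 0.38 SE, limma adjusted p = 0.0585) and miR-30a at 120 min (0.88 ± 0.38, adjusted p = 0.0787). MiR-30b gave 0.34, 0.64 and 0.52 at the 3 times, miR-30c -0.27, -0.26 and -0.09, and miR-30e -0.08, 0.15 and -0.13, each ± 0.38. The common error reflects a fit that gave all miRNAs 1 variance.

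No member passed between 30 and 60 min or between 60 and 120 min, nor in the F test over all times, where 0.602%, 0% and 14.5% of tested miRNAs passed in limma. None was under an unadjusted 0.05 in these 3 tests. The deposited scale rests on 0 min replicate 1. Without it miR-30a and miR-30d passed at 60 and at 120 min (log2 changes 0.97 and 0.96, then 1.19 and 1.18), and miR-30c turned to 0.08, 0.09 and 0.27. Without 60 min replicate 3, in which miR-30b was low, miR-30b passed at 60 min with 1.10 and miR-30d at 120 min with 0.94. The share of all tested miRNAs that passed in these fits is not given here, so these calls cannot be rated against it.

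Relative to the other miRNAs, miR-30c and miR-30e stood low after LPS. The median log2 change of the 166 was 0.28, 0.43 and 0.57 at 30, 60 and 120 min, and miR-30c lay 0.56, 0.70 and 0.66 below it. Ranked from the lowest change, it was number 4 at 30 min, 9 at 60 min and 24 at 120 min. MiR-30e, near background, lay 0.37, 0.28 and 0.70 below the median, at numbers 23, 46 and 18. MiR-30d lay above the median by 0.39, 0.29 and 0.37, miR-30a by 0.30, 0.23 and 0.30, and miR-30b within 0.21 of it.

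When each sample was instead scaled on its 100 most abundant miRNAs, a scale on which the median change was -0.06, -0.03 and -0.06, miR-30c fell by 0.74 ± 0.15 SE at 60 min (limma adjusted p = 0.00368) and by 0.72 ± 0.15 at 120 min (adjusted p = 0.00231). At 30 min its change was -0.62 ± 0.15 (adjusted p = 0.0719). All 3 samples of every stimulated time point lay below the 0 min samples, which held for 22.9%, 24.1% and 31.9% of tested miRNAs. MiR-30e fell by 0.75 ± 0.19 at 120 min (limma adjusted p = 0.00799), but its unscaled counts did not fall. They were 34, 30 and 29 at 0 min and 43, 37 and 36 at 120 min, close to the highest negative control of each sample. With top-100 scaling 19.9% of tested miRNAs passed as lower at 60 min and 27.1% at 120 min, against 1 and 2 of the 5 members. Both members also passed the F test, with 39.2% of all tested miRNAs.

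The miR-30c calls at 60 and 120 min and the miR-30e call at 120 min were made in all 12 fits that left out 1 sample. They also held with the negative-control mean subtracted first, where miR-30c fell by 0.74 and 0.72 and miR-30e by 0.64 at 120 min. Subtraction of a mean does not remove background at the level of the highest negative control, near which miR-30e read. With that subtraction miR-30d passed as higher at 120 min (0.50 ± 0.15 SE, limma adjusted p = 0.0249), as 15.7% of tested miRNAs did. Scaled on the ligation controls, whose median change was -0.52, -0.38 and -0.18, miR-30c and miR-30e passed as lower at all 3 times, with 47.6%, 37.3% and 28.9% of the tested miRNAs. The changes of miR-30c were then -1.09, -1.09 and -0.85. The direction of miR-30a, miR-30b and miR-30d depended on the scale, as the plot of changes shows.

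**Figure D4:**
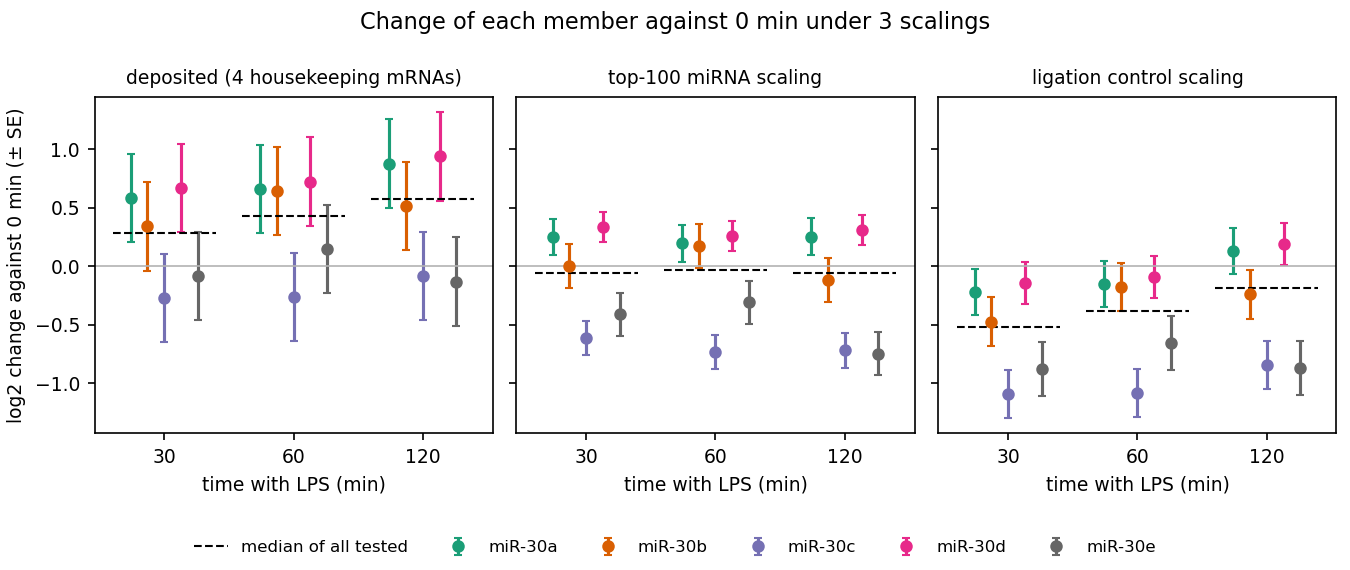
Log2 change of each miR-30 member against 0 min (y axis, ± SE from limma) at 30, 60 and 120 min with LPS under 3 scalings. Dashed lines are the median change of all 166 tested miRNAs. MiR-30c lies below that line in every panel, and miR-30a and miR-30d above it.

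The members were also set beside tested miRNAs of like abundance. Among the 56 tested miRNAs with the highest mean signal, where miR-30c belongs, the median log2 change with top-100 scaling was -0.17 at 60 min and -0.09 at 120 min, with lower quartiles of -0.48 at both. The next 55, with miR-30a, miR-30b and miR-30d, had medians of 0.06 and 0.04 and upper quartiles of 0.23 and 0.24. MiR-30c thus lay below the lower quartile of its class, and miR-30d (0.26 and 0.31) above the upper quartile of its own. The faintest 55, with miR-30e, had lower quartiles of -0.374 at 60 min and -0.733 at 120 min. MiR-30e, at -0.311 and -0.748, lay above the first and close to the second.

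The summed family made up a small part of the miRNA signal. It held 0.825%, 0.740% and 0.782% of the mouse miRNA signal in the 0 min replicates, and 0.607% to 0.669% in the 9 stimulated samples, all of them lower. Means were 0.783% ± 0.043 at 0 min, 0.652% ± 0.026 at 30 min, 0.659% ± 0.0081 at 60 min and 0.633% ± 0.025 at 120 min (SD, n = 3). No test was made of this sum over chosen members. MiR-30c made up 56.1% to 77.0% of the sum, so the sum is not a result apart from that of miR-30c. With top-100 scaling, 22.9% of single tested miRNAs at 30 min, 24.1% at 60 min and 31.9% at 120 min lay wholly below 0 min. Those percentages set 3 samples against 3 on another scale, which is easier to meet than 9 against 3. How many families would separate in all 9 stimulated samples was not counted.

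The other families chosen to be set beside miR-30 overlapped between 0 min and stimulated samples. The let-7 family with miR-98, known for restraining growth, held 23.7% to 28.4% at 0 min and 22.0% to 26.2% after LPS. The miR-15/16 family, which limits cell-cycle entry, held 9.41% to 10.7% and 10.3% to 12.2%. The miR-29 family, a regulator of collagens and DNA methyltransferases, held 1.63% to 1.98% and 1.57% to 2.60%.

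**Figure D5:**
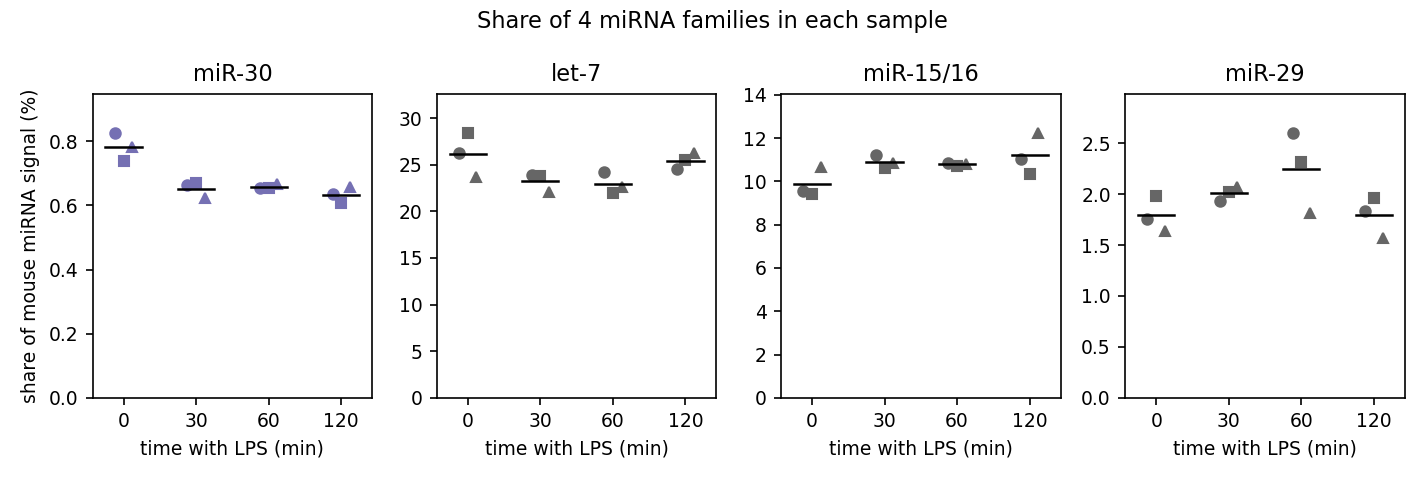
Share of the mouse miRNA signal (%, y axes from 0) held by the miR-30, let-7, miR-15/16 and miR-29 families in each sample, against minutes with LPS. Points are samples and lines group means. The miR-30 share is 0.740% to 0.825% at 0 min and 0.607% to 0.669% in stimulated samples.

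The miRNAs whose signal followed the family sum most closely were found by the SD over the 12 samples of their log2 ratio to it. They were miR-23a (SD 0.07), miR-99a (0.10), let-7g (0.10), miR-181a (0.11) and miR-669o (0.11), against a median of 0.33 over the tested miRNAs. Their levels were also high, with mean signals from 360 for miR-181a to 13823 for let-7g. MiR-23a averaged 4229 at 0 min, 4064 at 30 min, 4211 at 60 min and 4835 at 120 min. Of the members, miR-30c had an SD of 0.14 to the sum that it dominates, and miR-30a, at 0.37, followed it least.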

How the data were processed

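The authors deposited 1 table of signal values for 12 samples, and its normalization is not given in the sources used. From the values, the deposited signal equals whole counts times 1 factor per sample (0.748 to 2.26 signal units per count; 100% of values between 20 and 2000 were whole within 0.1 of a step), with a floor of 20. The geometric mean of Actb, B2m, Gapdh and Rpl19 was 9390.3 in every sample. Mouse miRNAs with a mean signal above 30.5 (8 negative controls, mean plus 2 SD) were tested (166). Those controls are unscaled counts, so this threshold differs between samples when read in counts.

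Log2(signal + 1) was fitted with limma 3.58.1 (R 4.3.3) with 1 mean per time point over all 12 samples, and p-values were adjusted over the 166 (threshold 0.05). Very small limma p-values overstate what 3 against 3 samples can show. On the deposited scale the fit pooled the variance of all miRNAs, and with top-100 and ligation scaling it did so in part. Pair ratios used exact permutation tests (numpy 2.4.6). The written design adjusted these over the 10 pairs; adjustment over all 13695 pairs replaced it, because the members and lists were chosen with earlier results of these data known. The code was tested on simulated data. Named miRNAs were the 5 members, miR-384-5p, the 5 miRNAs most like the family sum, and the let-7, miR-15/16 and miR-29 families as sums. The other arms of the miR-30 hairpins were also planned but had no probe by name. Sequences for 3 of 5 members were matched by miRNA name in RefSeq (GRCm38.p6). Replicate numbers were not treated as pairs: of 18 same-numbered sample pairs, 5 had correlated deviations above 0.1 (range -0.38 to 0.35). Such correlations cannot show a shift of a whole sample shared by a replicate number, so they do not settle pairing. Alternatives were top-100 and ligation scalings, background subtraction, a common floor of 45.3, other pseudocounts and filters, a trended prior, a replicate block, and each sample left out.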

Additional observations from a re-analysis of the deposited data

How the results depend on the processing

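On the deposited scale no member passed at 30 min or between stimulated time points under any alternative run. Ligation scaling gave 2 at 30 min, top-100 scaling 1 there (miR-30c) without 0 min replicate 3 or without 60 min replicate 3, and 1 between 60 and 120 min (miR-30e) without 0 min replicate 1. At 60 min top-100 scaling gave 1, with or without the replicate block or background subtraction, and ligation scaling 2. At 120 min top-100 and ligation scaling gave 2, as did background subtraction and the replicate block on the deposited scale (then miR-30a and miR-30d, higher), and top-100 scaling with background subtraction gave 3. In the F test top-100 scaling gave 2 members, ligation scaling 2, and top-100 scaling with the replicate block or background subtraction 1. Leaving out 1 sample gave 0 to 2 members on the deposited scale, and 0 to 3 with top-100 scaling included (30 min 0 to 1, 60 min 0 to 2, 120 min 0 to 3, F test 0 to 3). For these fits, the replicate block and background subtraction on the deposited scale, the share of all tested miRNAs that passed is not given here. Of the 10 pairs, 2 passed, against 24.5% of all pairs. Background subtraction left 1 (19.7% of all pairs), a common floor 0 (11.7%) and the replicate block 1 (10.4%). The comparison of 0 min with the 9 stimulated samples gave 4 (18.2%), and leaving out 1 sample 0 to 3 (8.84% to 25.5%). Adjustment over the 10 pairs alone gave 4 and has no such share.

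Log2 changes turned sign under ligation scaling for miR-30a (-0.22 at 30 min, -0.15 at 60 min), miR-30b (-0.47, -0.18 and -0.24 at 120 min), miR-30d (-0.14, -0.092) and miR-30e (-0.66 at 60 min). They also turned for miR-30e at 60 min under top-100 scaling (-0.31) and the common floor (-0.16), and for miR-30b at 120 min under top-100 scaling (-0.12). With 1 sample left out, miR-30c ran from -0.48 to 0.077, -0.47 to 0.088 and -0.37 to 0.27 at 30, 60 and 120 min, and miR-30e from -0.36 to 0.44, -0.13 to 0.67 and -0.41 to 0.39. The stimulated minus 0 min difference in the log2 ratio of miR-30e to miR-30c was -0.0067 with the common floor. That difference for miR-30a to miR-30d ran from -0.17 to 2.1e-05 with 1 sample left out. The cause was not tested. The family share stayed lower after LPS by 0.113 to 0.156 percentage points with 1 sample left out, and all stimulated samples lay below all 0 min samples with the 3 other denominators.

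The 2 planned count models were not run. Depth limits miR-30e, at 29 to 44 counts, most. The labels describe biological replicates without saying whether cultures were separate. The p-values thus rest on the spread between these samples and may not extend to separate cultures. Whether replicate numbers pair samples is not settled, and the block changed no call other than those given. Background subtraction for the member fits, the block on top-100 scaling and top-100 scaling with background subtraction or with 1 sample left out were chosen after seeing the data.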
